A study of Homo sapiens with 4 samples.

Results

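The ABC transporters are a family of membrane pumps and related ATPases, followed here in CAL-27, an established cell line from a human squamous carcinoma of the tongue, before and after selection for resistance to cisplatin, a platinum compound that crosslinks DNA. Members were taken by name alone: every row of the array whose platform gene symbol is ABC, a letter from A to G and a number. This gave 40 rows for 29 genes, of 42152 rows and 15073 named genes in all. Of the 45 protein-coding genes with such a symbol in RefSeq's table for GRCh38, 29 were members. ABCB1 and ABCG2 are among the genes not analysed here.

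Parental CAL-27 cells (2 arrays) were compared with cisplatin-resistant CAL-27 cells (2 arrays) that had been grown, per the labels, in cisplatin raised by steps from 1e-07 M to 1e-05 M. Both groups were kept in the same serum-containing medium, and the labels name no other agent or genetic change. The series describes the 2 arrays of a group as biological replicates. Nothing says that they came from separate selections, so p-values measure the spread between these arrays, and resistance and any other change of the selected cells cannot be told apart.

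Values are log2 of the normalized intensity, so that a difference of 1 is 2-fold. Differences are resistant minus parental with limma's standard error (SE), and n is 2 arrays per group throughout. Each gene is given by its row with the highest mean, and the words rose and fell are kept for an adjusted p under 0.05 in limma's fit over all 15073 genes. Across all rows the parental arrays correlated with each other at r = 0.921 and the resistant arrays at 0.946, and arrays of different groups at 0.890 to 0.906. The 8 markers of squamous epithelium lay between 10.21 and 15.71 in parental and between 6.23 and 15.37 in resistant arrays. Of the 8, 4 fell, whereas 6.1% of all genes were called by the same test. All 8 were lower in both resistant arrays, as were 31.0% of all genes. The 3 measured fibroblast markers stayed at or under 6.19 and the 5 leukocyte markers at or under 8.82. Of the 4 endothelial markers, CDH5, a cadherin, rose from a mean of 4.23 to a mean of 9.25, and the other 3 did not pass. The part of these markers in the results below was not tested.

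ABC proteins couple the binding and hydrolysis of ATP to the movement of a substrate across a membrane, using membrane-spanning domains joined to nucleotide-binding domains. The family falls into subfamilies: A and G mostly move lipids and sterols, B holds the P-glycoprotein relatives and transporters of mitochondria and lysosomes, C holds the multidrug resistance proteins (MRP) and the sulfonylurea receptors, and D feeds fatty acids into peroxisomes. The E and F proteins lack membrane-spanning domains and act on ribosomes. In tumour cells the B, C and G pumps are known for exporting drugs, and some MRP pumps export glutathione conjugates, a form in which cells can carry platinum.

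More members had a difference below 0 than above it, and few passed the test. A single gene, ABCB6, fell, 0 rose, and the other 28 did not pass. That is 3.45% of members, against 6.1% of all genes called by the same test. When every row was tested on its own, 0 member rows passed, as did 0 of all 42152 rows (0.0%). The smallest adjusted p was then 0.117 among member rows and 0.0606 among all rows. At an unadjusted p under 0.05 in this limma fit, 6 of the 40 member rows (15%) and 7896 of all rows (18.7%) were below the threshold. At an unadjusted p under 0.05 over genes, 1 member was higher and 6 were lower, where 13.8% and 14.4% of all genes were. Together these are 24.1% of members, against 28.2% of all genes. With 2 arrays per group the test can miss changes. In simulated arrays the same fit called none of the changes in some simulations and most of the larger changes in another. A member that did not pass is not shown to be unchanged.

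The median difference over the 29 members was -0.35, whereas it was -0.03 over all genes. The median size of the difference, whatever its sign, was 0.66 over members and 0.48 over all genes. Over the 17 members with a mean of at least 7 it was 0.48, against 0.46 over all genes with such a mean. The difference was below 0 for 19 of 29 members (65.5%), against 51.7% of all genes. Both resistant arrays lay below both parental arrays for 13 members, where 31.0% of all genes did so. Both lay above for 4 members, where 27.9% of all genes did so. The groups thus did not overlap for 17 members (58.6%), near the share in all genes (59.0%).

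A second limma setting, in which the prior variance follows the intensity of a gene (the intensity prior), called 6 members, 1 higher and 5 lower. These are 20.7% of members, against 21.5% of all genes, of which 9.93% were higher and 11.5% lower. ABCC3 was the member called higher, and ABCB6, ABCF3, ABCD3, ABCC1 and ABCA12 were called lower. ABCB6, ABCC3, ABCD3 and ABCF3 passed with this prior whichever array was left out, while ABCC1 and ABCA12 did not pass without parental replicate 2 or without resistant replicate 1. An exact permutation test of 2 arrays against 2 cannot go below a two-sided p of 0.333, so no such test is given for single genes.

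**Figure D1:**
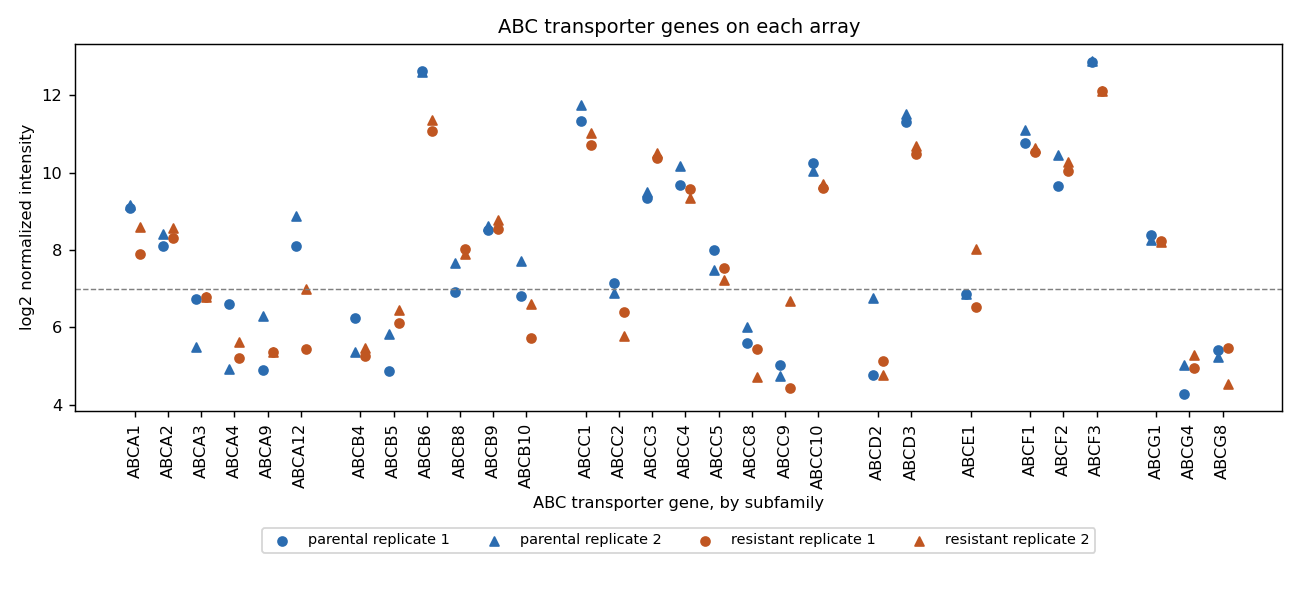
The plot gives log2 normalized intensity (y axis) of the 29 ABC transporter genes (x axis, by subfamily) on each parental (blue) and resistant (orange) array, circles for replicate 1 and triangles for replicate 2, with a dashed line at 7. Both resistant arrays of ABCB6, at 11.08 and 11.36, lie below both parental arrays, at 12.62 and 12.61, and the dim genes under the line scatter most between replicates.

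Signals of different genes come from different probes and are not set against each other as amounts. A dim signal does set the precision, however. For the 17 members with a mean of at least 7 the median gap between replicates was 0.23 in parental and 0.23 in resistant arrays. For the 12 members under 7 it was 0.89 and 0.39, and the largest gap, that of ABCC9, was 2.24.

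ABCB6 fell by 1.40 ± 0.20 on the log2 scale, or 2.63-fold (adjusted p = 0.0465, limma over all genes; 3.1e-04 with the intensity prior). It encodes a porphyrin transporter first described in mitochondria and also found on lysosomes and at the cell surface. Its log2 intensity was 12.62 and 12.61 in the parental arrays and 11.08 and 11.36 in the resistant arrays. The replicates lay close together and the groups did not overlap. With a replicate block ABCB6 did not pass (adjusted p = 0.115, limma over all genes), but in that setting 0 of all 15073 genes did. The block therefore says nothing particular about ABCB6. With any single array left out, the difference stayed between -1.53 and -1.26. ZFAND2B, a neighbouring gene within 5000 bases, differed by 0.16 ± 0.23 (adjusted p = 0.698). Neighbours were looked up after the values of the members had been seen.

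The 250 bases before the start of ABCB6 are shown because it is the member that passed, with those of ABCF3 and ABCD3, which had the smallest p with the intensity prior among the other lower members. These 3 genes, and the 4 motifs searched, were chosen after the values and the ABCB6 sequence had been seen, so the shares below are a description. Sequences are from RefSeq on build GRCh38.p14, on the strand of the gene, and 22 of the 29 members had an entry. Capitals mark matches, on either strand, to the GC box GGGCGG, the CCAAT box (CCAAT), the E-box CACGTG and a core of the antioxidant response element, TGACNNNGC.
ABCB6, chr2:219218959-219219208, minus strand: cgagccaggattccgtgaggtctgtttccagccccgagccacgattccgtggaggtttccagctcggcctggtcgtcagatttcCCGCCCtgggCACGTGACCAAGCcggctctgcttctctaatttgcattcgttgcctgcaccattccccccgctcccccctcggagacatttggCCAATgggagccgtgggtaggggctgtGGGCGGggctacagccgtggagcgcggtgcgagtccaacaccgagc
ABCF3, chr3:184185949-184186198, plus strand: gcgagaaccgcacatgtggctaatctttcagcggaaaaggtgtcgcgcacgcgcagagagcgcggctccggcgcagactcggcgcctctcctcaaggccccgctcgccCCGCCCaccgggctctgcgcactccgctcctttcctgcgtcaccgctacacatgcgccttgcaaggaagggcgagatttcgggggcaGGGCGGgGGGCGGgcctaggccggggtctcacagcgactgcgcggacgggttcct
ABCD3, chr1:94418139-94418388, plus strand: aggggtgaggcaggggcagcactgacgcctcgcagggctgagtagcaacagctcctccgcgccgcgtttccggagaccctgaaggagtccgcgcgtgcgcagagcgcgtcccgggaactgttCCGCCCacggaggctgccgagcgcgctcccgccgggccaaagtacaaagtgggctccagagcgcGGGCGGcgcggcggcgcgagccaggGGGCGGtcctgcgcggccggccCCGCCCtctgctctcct

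The ABCB6 window held 2 GC boxes, 1 CCAAT box, 1 E-box and 1 antioxidant core, the last of which overlaps the E-box. The ABCF3 window held 3 GC boxes and the ABCD3 window 4, with none of the other motifs in either. Over the 22 members with an entry, 15 windows (68.2%) held a GC box, against 42.3% of 27305 windows of all genes in the table. The E-box was in 4 member windows (18.2%), against 6.49% of all, and the antioxidant core in 5 (22.7%), against 11.0%. The CCAAT box was in 4 (18.2%), against 33.0%. The windows of all genes were not restricted to protein-coding genes, as those of the members are, so these shares may not compare like with like. These are matches of letters, and whether any factor binds there was not measured.

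The other members of subfamily B did not pass. Among the mitochondrial transporters, ABCB10, which supports heme synthesis in red cell precursors, was at 6.80 and 7.71 in parental and at 5.73 and 6.61 in resistant arrays, a difference of -1.08 ± 0.48 (adjusted p = 0.247). ABCB8, a transporter of the inner mitochondrial membrane, was higher in both resistant arrays, at 8.02 and 7.89 against 6.92 and 7.67, with a difference of 0.66 ± 0.32 (adjusted p = 0.280). These transporters thus had differences of both signs.

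ABCB9, a lysosomal peptide transporter, was at 8.52 and 8.63 in parental and at 8.54 and 8.77 in resistant arrays. Its other row differed by -0.03 and the brighter one by 0.08, both less than their SEs. ABCB5, a P-glycoprotein relative known as a marker of melanoma and corneal stem cells, was dim, at 4.87 and 5.82 in parental and at 6.11 and 6.46 in resistant arrays (0.94 ± 0.40, adjusted p = 0.232). ABCB4, the phosphatidylcholine transporter of the bile canaliculus, was dim too, and its groups overlapped (-0.43 ± 0.37).

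Subfamily C holds the MRP pumps known for drug export, and here the members differed in sign. ABCC3, which exports glucuronides and bile salts across the basolateral membrane, was 2.02-fold higher in the resistant arrays. It was at 9.33 and 9.51 in parental and at 10.37 and 10.51 in resistant arrays, a difference of 1.01 ± 0.19 that did not pass over all genes (adjusted p = 0.0693) and passed with the intensity prior (adjusted p = 0.0043). Its second row was at 7.16 and 7.41 in parental and at 8.78 and 8.79 in resistant arrays, a difference of 1.50 ± 0.25 in the fit over all rows. With the mean of both rows in place of the brighter one, ABCC3 passed, with a difference of 1.26 (adjusted p = 0.045). Both rows therefore showed non-overlapping groups in the same direction. ANKRD40, a neighbour within 5000 bases, differed by 0.52 ± 0.18 (adjusted p = 0.161; the intensity prior gave 0.0252).

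ABCC1, the MRP that exports glutathione conjugates such as leukotriene C4, was lower in both resistant arrays. It was at 11.33 and 11.76 in parental and at 10.73 and 11.04 in resistant arrays, a difference of -0.66 ± 0.26 (adjusted p = 0.205, and 0.0374 with the intensity prior). All 3 of its rows were lower in both resistant arrays, with differences between -0.66 and -0.56. ABCC2, the apical MRP of liver and kidney, was dim, at 7.14 and 6.88 in parental and at 6.41 and 5.77 in resistant arrays (-0.92 ± 0.30, adjusted p = 0.156). The conjugate exporters ABCC1 and ABCC2 thus had differences below 0, and that of ABCC3 was above 0.

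The remaining MRP members were lower on average and none passed. ABCC4, which exports cyclic nucleotides and prostaglandins, was at 9.69 and 10.18 in parental and at 9.58 and 9.35 in resistant arrays (-0.47 ± 0.26, adjusted p = 0.325). ABCC10, a broad drug pump, was at 10.24 and 10.05 in parental and at 9.61 and 9.72 in resistant arrays (-0.48 ± 0.19, adjusted p = 0.212). ABCC5, also an exporter of cyclic nucleotides, had overlapping groups (-0.37 ± 0.28). Of the sulfonylurea receptors, which are subunits of potassium channels and not pumps, ABCC8 differed by -0.72 ± 0.35 and ABCC9 by 0.67 ± 0.83. ABCC9 was at 5.03 and 4.75 in parental and at 4.44 and 6.68 in resistant arrays, so that resistant replicate 2 alone set its sign.

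**Figure D2:**
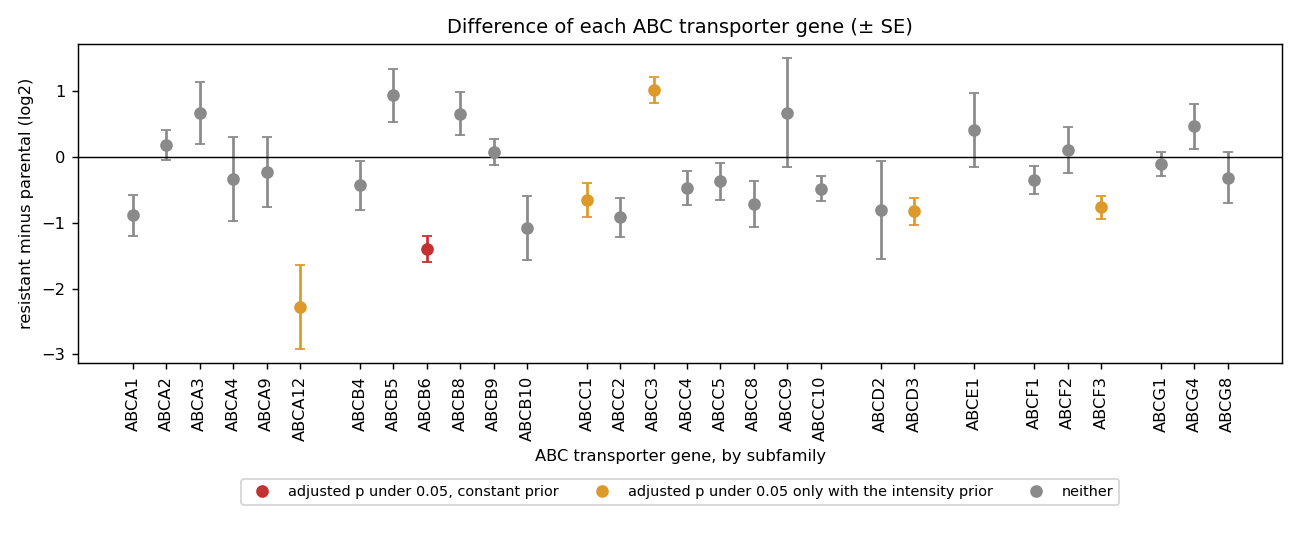
The plot gives the difference of each of the 29 ABC transporter genes, resistant minus parental on the log2 scale (y axis) with limma's SE as bars, by subfamily (x axis), red for an adjusted p under 0.05 over all genes, orange where it was so only under the intensity prior, and grey for neither. ABCB6 (-1.40) passed over all genes, and ABCC3 (1.01) is the one member above 0 that passed with the intensity prior.

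In subfamily A the lower values stood out by size. ABCA12, which loads glucosylceramide into the lamellar granules of keratinocytes for the skin's lipid barrier, had the lowest difference of the family. It was at 8.11 and 8.87 in parental and at 5.44 and 6.98 in resistant arrays, 4.84-fold lower, with a difference of -2.28 ± 0.64 that did not pass (adjusted p = 0.123, and 0.0222 with the intensity prior). Its second row was at 7.63 and 7.20 in parental and at 4.96 and 6.60 in resistant arrays (-1.64 ± 0.65). The groups did not overlap in either row, but the resistant replicates were far apart in both. Without resistant replicate 1 the difference was -1.50, and without resistant replicate 2 it was -3.05. The squamous epithelial markers were lower too, with a median difference of -1.98 over the 8, against -0.03 over all genes. Of these markers 4 fell, whereas 6.1% of all genes were called. The part of the markers in the value of ABCA12 was not tested.

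ABCA1, which passes cholesterol and phospholipid to apolipoprotein A-I, was at 9.09 and 9.17 in parental and at 7.89 and 8.61 in resistant arrays, a difference of -0.88 ± 0.31 (adjusted p = 0.175). ABCG1, which moves cholesterol towards high-density lipoprotein, was at 8.39 and 8.27 against 8.25 and 8.20 (-0.11 ± 0.18), and its 3 rows lay between -0.55 and -0.11. The other A members were ABCA2, a lipid transporter of endosomes and lysosomes (0.18 ± 0.23), ABCA3, which fills the lamellar bodies of the lung with surfactant lipid (0.67 ± 0.47), ABCA4, the retinoid transporter of photoreceptors (-0.34 ± 0.64), and ABCA9 (-0.23 ± 0.53). None of these passed, and of these ABCA2 alone had a mean above 7. In subfamily G, ABCG4 (0.47 ± 0.34) and ABCG8, which works as a pair with ABCG5 in sterol export (-0.32 ± 0.39), were dim and overlapped between the groups.

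The peroxisomal subfamily D had a lower member. ABCD3, a major protein of the peroxisomal membrane that takes in branched-chain fatty acids and bile acid precursors, was at 11.30 and 11.53 in parental and at 10.49 and 10.69 in resistant arrays. The difference was -0.82 ± 0.21 (adjusted p = 0.104, and 0.0066 with the intensity prior). Its second row, for another transcript, was at 9.66 and 9.91 in parental and at 9.67 and 9.49 in resistant arrays (-0.21 ± 0.26). The groups overlapped in that row, and the rows of ABCD3 differed in size by 0.62. With the mean of both rows in place of the brighter one, the difference was -0.52 and did not pass (adjusted p = 0.182, limma over all genes). ABCD2, a peroxisomal fatty acid transporter, was dim and its groups overlapped (-0.81 ± 0.75).

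Among the ribosome-acting members, ABCF3 stood apart. It was at 12.86 and 12.90 in parental and at 12.12 and 12.11 in resistant arrays, so that the replicates of each group nearly coincided. The difference of -0.76 ± 0.18 did not pass over all genes (adjusted p = 0.0913) and passed with the intensity prior (adjusted p = 0.0031). Its neighbour AP2M1, within 5000 bases, differed by -0.67 ± 0.21 (adjusted p = 0.146; the intensity prior gave 0.0146).

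ABCF1, which takes part in translation initiation, was at 10.77 and 11.11 in parental and at 10.54 and 10.64 in resistant arrays (-0.35 ± 0.22, adjusted p = 0.374). ABCF2 was at 9.65 and 10.46 in parental and at 10.04 and 10.29 in resistant arrays (0.11 ± 0.35). A row named for the readthrough gene ABCF2-H2BK1, outside the naming rule, differed by -0.18 ± 0.18. ABCE1, which splits ribosomes after termination, was at 6.87 and 6.86 in parental and at 6.53 and 8.02 in resistant arrays (0.41 ± 0.56). The groups of ABCE1 and of ABCF2 overlapped, and their signs changed when single arrays were left out.

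**Figure D3:**
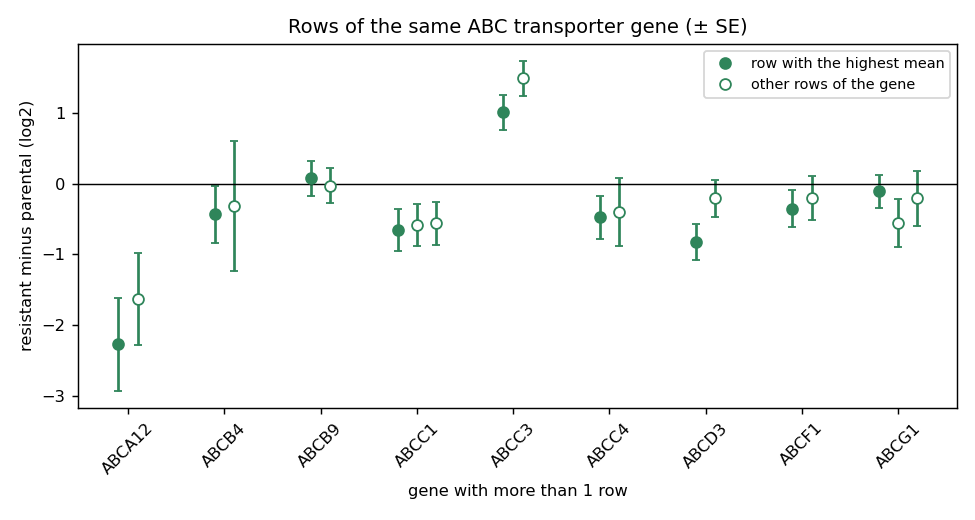
The plot gives the difference, resistant minus parental on the log2 scale (y axis) with limma's SE from the fit over all rows as bars, for each row of the 9 ABC transporter genes with more than 1 row (x axis); filled points are the row with the highest mean. Both rows of ABCC3 lie above 0 (1.01 and 1.50), both rows of ABCA12 lie below it (-2.28 and -1.64), and the rows of ABCB9 lie on either side.

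In 8 of the 9 genes with more than 1 row, all rows of the gene had the same sign, ABCB9 being the exception. Rows of a gene stand for its transcripts, may share probes and are read from the same RNA, so they are not independent of each other. Labelling copied both strands of the cDNA, so that overlapping transcripts on either strand cannot be told apart. In bulk RNA, fewer cells that express a gene and less RNA per cell cannot be told apart either.

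The genes that these transporters work with were followed in 10 lists, of whose 118 genes 92 were measured. Of these, 5 fell, 0 rose and 87 did not pass, so that 5.43% were called, against 6.1% of all genes. With the intensity prior 1 was higher and 17 were lower, which is 19.6% against 21.5%. Both total shares lie near those of all genes. By direction, the calls with the intensity prior leaned lower more than those of all genes, of which 9.93% were higher and 11.5% lower. The 3 ABC proteins under other symbols did not pass: TAP1, TAP2 and CFTR differed by 0.09 ± 0.20, 0.14 ± 0.24 and 0.17 ± 0.21, and 0 of 8 genes of the peptide-loading complex that TAP1 and TAP2 serve passed.

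For the sterol exporters ABCA1 and ABCG1, 2 of 10 measured partner and liver X receptor target genes fell. That is a larger share than the 6.1% of all genes called by the same test. With the intensity prior 1 of the 10 was higher and 4 were lower, again a larger share than in all genes (21.5%). PLTP, which transfers phospholipid between lipoproteins, was 9.09-fold lower (-3.18 ± 0.18, adjusted p = 0.0165), and SREBF1, a transcription factor of lipid synthesis, was 5.85-fold lower (-2.55 ± 0.21). ABCA1 and ABCG1 themselves, with differences of -0.88 and -0.11, did not pass. Among 13 measured regulators of ABC genes 1 fell (7.69%, against 6.1% of all genes), and the other 12 did not pass. It was RXRA, the partner of the lipid and xenobiotic receptors, 2.73-fold lower, from 12.12 and 11.93 to 10.54 and 10.62 (adjusted p = 0.0408). AHR, the aryl hydrocarbon receptor, differed by -1.31 ± 0.24 (adjusted p = 0.0658; the intensity prior gave 0.0058).

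For the MRP pumps, 1 of 9 measured conjugation genes fell (11.1%, against 6.1% of all genes). It was GSR, the glutathione reductase, by 1.89 ± 0.18 (adjusted p = 0.0272). Of 4 membrane anchors, NHERF1, a scaffold that binds the tail of ABCC2 and CFTR at the apical membrane, fell 5.41-fold, from 12.05 and 11.94 to 9.79 and 9.32 (adjusted p = 0.0287). The other 3 did not pass, so that 25.0% of this short list was called, against 6.1% of all genes. KCNJ11, the channel subunit that ABCC8 joins, was dim and differed by -0.54 ± 0.30.

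For the peroxisomal members, 0 of 24 genes of peroxisome assembly and beta-oxidation passed. Their median difference was -0.31, both resistant arrays were lower for 10 and higher for 4, and the intensity prior called 4 lower. These shares, 58.3% without overlap and 16.7% called, are no higher than those of all genes, 59.0% and 21.5%. PEX19, a carrier of peroxisomal membrane proteins, differed by -0.84 ± 0.18 (adjusted p = 0.0793), beside -0.82 and -0.21 for the 2 rows of ABCD3. For ABCE1 and the F members, 0 of 12 ribosome recycling and initiation genes passed, with EIF2S3, a subunit of the initiation factor that ABCF1 binds, at -0.90 ± 0.18 (adjusted p = 0.073). Of 8 mitochondrial iron-sulfur and heme genes, 0 passed, and the intensity prior called 1 lower (12.5%, against 21.5% of all genes). It was BOLA3, an iron-sulfur assembly gene, at -0.83 ± 0.23 (adjusted p = 0.119, and 0.0071 with the intensity prior). The iron-sulfur and heme genes include partners of the mitochondrial members, ABCB6 among them.

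**Figure D4:**
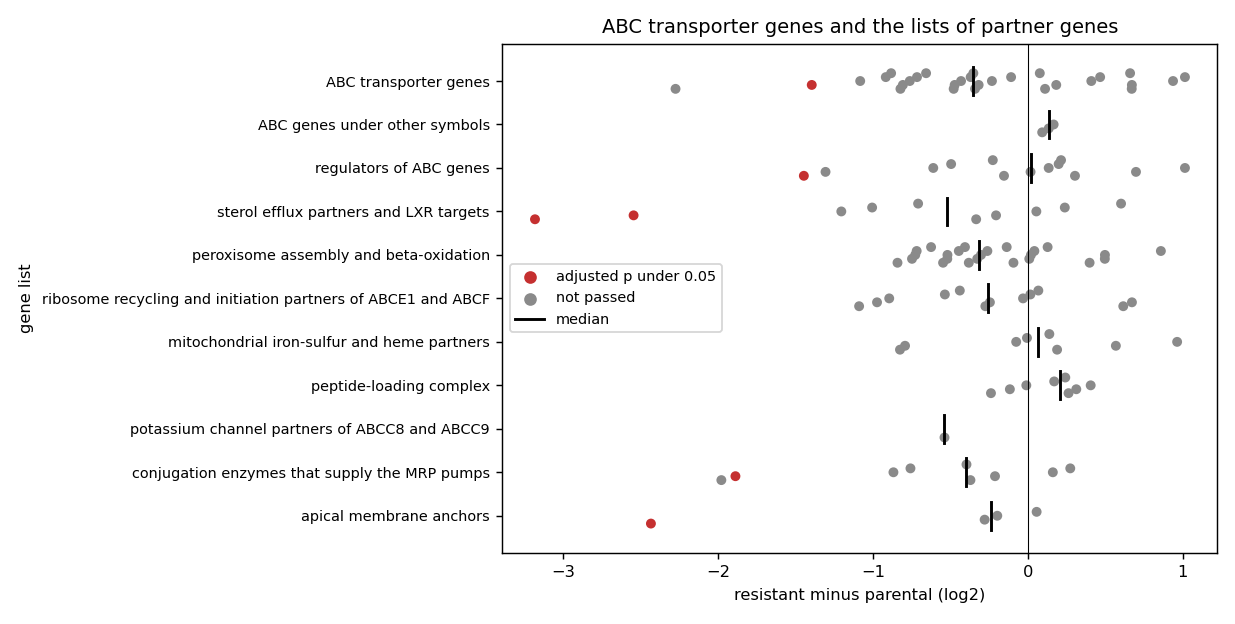
The plot gives the difference of each gene, resistant minus parental on the log2 scale (x axis), for the ABC transporter genes and the 10 lists of partner genes (y axis); red points had an adjusted p under 0.05, grey points did not pass, and black lines are medians. ABCB6 is the red point of the family, and 5 partner genes are red: RXRA, PLTP, SREBF1, GSR and NHERF1.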

How the data were processed

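Total RNA from 4 CAL-27 samples was hybridised to 1-colour arrays, 2 in each group. The labels' protocols give cDNA primed with oligo-dT and Cy3-labelled random primers. The deposited values are normalized intensity on a linear scale, made by the authors with RMA per the submitters' processing notes. Its version and the row filter are not given in the sources used here. Array number limits the precision, and so does a dim signal.

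Log2 of the deposited intensity was used without renormalization. The platform annotation named 17899 rows, RefSeq accessions named another 674, and 23579 were unnamed. The test was lmFit and eBayes of limma 3.58.1 (R 4.3.3), with Benjamini-Hochberg adjustment over all genes or all rows.

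The fit was tested on simulated arrays in which a set of genes was changed by known amounts. Fold changes were recovered closely. In the simulation run first, with spreads shared by genes of like intensity, the main fit called none of the changed genes, whereas the intensity prior called most of them. A second simulation, added because of that outcome, drew spreads from the prior that the main fit itself estimates. It too called none at the same sizes, with either prior. With larger changes put in, it called most of the larger ones and none of the smallest. How many changes the main fit misses thus depends on the spreads and changes assumed.

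Alternatives changed the prior, block, scaling, offset, dim filter, test, arrays and choice of row. Values per array follow a rule: an adjusted p under 0.1, the 8 largest differences among means over 8, the 6 highest means, or rows over 0.5 apart. Further members given per array were chosen after their values were seen. From each partner list at most 3 genes of smallest p are named. Members and lists were chosen with earlier results of these data known. Neighbouring genes, promoter motifs and the intensity prior with an array left out were added after seeing the data. Some genes of the family are not reported here.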

Additional observations from a re-analysis of the deposited data

How the results depend on the processing

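Whether a gene passed depended on how its spread was estimated from 2 arrays per group. The dim filter, which leaves out rows with a mean under 7, kept 17 of the 29 ABC genes and 9777 of all 15073 genes. Among the ABC genes 1 passed (3.45%, against 6.1% of all genes), against 6 with the intensity prior (20.7%, against 21.5%). The number was 5 with the dim filter, 4 with an offset of 50 before log2 and 2 with the mean over the rows of a gene. The count was 0 with the unmoderated test, with a replicate block and without any 1 of the 4 arrays; with 1 array left out, the lone array of a group is assumed to vary like the other group. With the intensity prior and 1 array left out, in a setting added after seeing the data, it was 4 to 6. Over all genes the count was 919, against 3234, 2736, 2112 and 1087 under the first settings in the same order, 965 and 958 with median centring and quantile normalization, and 0 with the unmoderated test, the block or an array left out. With the intensity prior and an array left out it lay between 1899 and 2797, the lowest values being 1899 and 1970 without the first and the second resistant array. Over all rows it was 0, against 3960, 3407 and 1625 with the intensity prior, the dim filter and the offset. Among partner genes it was 5, against 18, 16 and 10 in that order, and 0 with the block, the unmoderated test or 1 array left out. The replicate block rests on numbers that nothing in the labels ties together; deviations of same-numbered arrays correlated at 0.142 over genes, and there are only 2 pairs. The median difference of the ABC genes stayed between -0.42 and -0.23 under every scaling, offset, row choice and array left out. Median centring moved all rows by -0.07. For 20 members no left-out array changed the sign. For the other 9, of which 3 had a mean of at least 7, the difference ranged with 1 array left out from -1.18 to 0.50 for ABCA4, -0.94 to 0.47 for ABCA9, -0.87 to 0.0096 for ABCB4, -0.0373 to 0.19 for ABCB9, -0.45 to 1.79 for ABCC9, -1.81 to 0.19 for ABCD2, -0.34 to 1.16 for ABCE1, -0.29 to 0.51 for ABCF2 and -0.79 to 0.16 for ABCG8. The causes of these changes were not tested.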

Other observations

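Pseudogene rows of the family, outside the naming rule, were measured as well. ABCA15P was dim, with a mean of 6.74, and differed by -0.91 ± 0.23 (adjusted p = 0.105, limma over all genes, and 0.207 with the intensity prior). It was lower in both resistant arrays, at 6.19 and 6.38 against 7.01 and 7.38, as were 31.0% of all genes. ABCA11P and ABCA17P differed by -0.03 ± 0.28 and -0.05 ± 0.18, less than their SEs.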
